A study of Mus musculus with 78 samples.

Results

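The amygdala and the dorsal hippocampus of the same mice were compared gene by gene. A library belonged to the comparison when its title gave 1 of these 2 regions and its mouse had both regions sequenced. This gave 22 of the 78 libraries of the series, 11 from each region, from 11 of the 12 mice. The remaining mouse, number 11, was left out because no amygdala library of it was used here. Poly(A) RNA was sequenced from 7 dissected regions in a study that asks how loss of the enzyme ACSS2 acts on alcohol drinking. This enzyme turns acetate, which the body forms when it breaks down ethanol, into acetyl-CoA.

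All 11 mice were of the C57BL6/J strain and adult. KO mice lacked ACSS2 constitutively after CRISPR cuts in the introns on both sides of exons 3 to 7 of Acss2, and founders had been backcrossed for 3 generations. WT mice did not carry the deletion. Every mouse, KO or WT, was housed singly and had drunk 15% ethanol by volume in the dark phase, first beside a water bottle and in the second week with ethanol alone. The sample labels give session lengths of 2 h for days 1 to 3 and 4 h for day 4. No mouse without ethanol entered the comparison, so the differences below are between regions of mice that drank. The 6 KO mice were males 1, 2 and 10 and females 4, 5 and 6. The 5 WT mice were males 3, 12 and 13 and females 23 and 24. The deposited counts are in a table for males and a table for females, so sex and table cannot be told apart, and both regions of a mouse stand in the same table.

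The dorsal hippocampus is a layered cortex in which granule cells of the dentate gyrus excite CA3 pyramidal cells, which in turn excite CA1, and it is known for its part in spatial and contextual memory. The amygdala is a set of nuclei of unlike origin. Its lateral and basal nuclei are built mainly of glutamatergic projection neurons. The central and medial nuclei and the intercalated cell masses are built mainly of GABAergic neurons rich in neuropeptides, and they carry fear, social, feeding and stress signals to the hypothalamus and brainstem. Peptides such as CRF, dynorphin and somatostatin in the amygdala are widely studied in alcohol drinking.

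Total counts were 7263067 to 9142592 in the amygdala (median 7929940) and 4454420 to 8346632 in the dorsal hippocampus (median 7384330). Values of single genes are CPM, a gene's counts scaled by the library total, and 3 counts correspond to 0.328 to 0.673 CPM. Such a floor covers counting error only. Reads of mitochondrial genes were 3.25% to 5.87% of the amygdala totals and 4.36% to 8.04% of the hippocampal totals. The numbers after the letter S in the library names ran from 37 to 47 for the amygdala and from 1 to 12 for the dorsal hippocampus. The labels do not say what these numbers stand for. Any effect that follows them cannot be told apart from region. Acss2 separated the genotypes in both regions. It was 5.56, 6.80 and 8.64 CPM (lowest, median, highest) in KO amygdala, against 42.3, 44.1 and 64.9 CPM in WT amygdala. In the dorsal hippocampus it was 4.47, 6.91 and 8.51 CPM in KO and 47.5, 53.2 and 69.6 CPM in WT. Xist and Ddx3y placed every library in the labelled sex.

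Several dissections had high levels of markers of neighbouring structures. The summed level of 8 choroid plexus markers reached 7867 and 11677 CPM in the amygdala of mice 4 and 5, while the other 9 amygdala libraries had 118 to 1020 CPM. The same 2 amygdala libraries had 355 and 133 CPM of Fibcd1, a CA1 marker, where the others had at most 16.6 CPM. The amygdala of mouse 12 had 1757 CPM over 12 hypothalamic markers, with 912 CPM of Avp and 533 CPM of Pmch, and only 196 CPM of Slc17a7, the glutamate transporter of cortical projection neurons. The amygdala of mouse 6 had the highest striatal sum, 1968 CPM, and that of mouse 23 the highest sum of cortical layer markers, 891 CPM. In the dorsal hippocampus, the library of mouse 23 stood apart, with 7082 CPM of choroid plexus markers, 1122 CPM of thalamic markers and the lowest dentate gyrus sum, 583 CPM. Its mean correlation with the other hippocampal libraries was 0.926, where the next lowest was 0.954. These libraries were kept in the main comparison, which was also run without mice 4, 5, 12 and 23, a choice made after seeing the data.

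**Figure D1:**
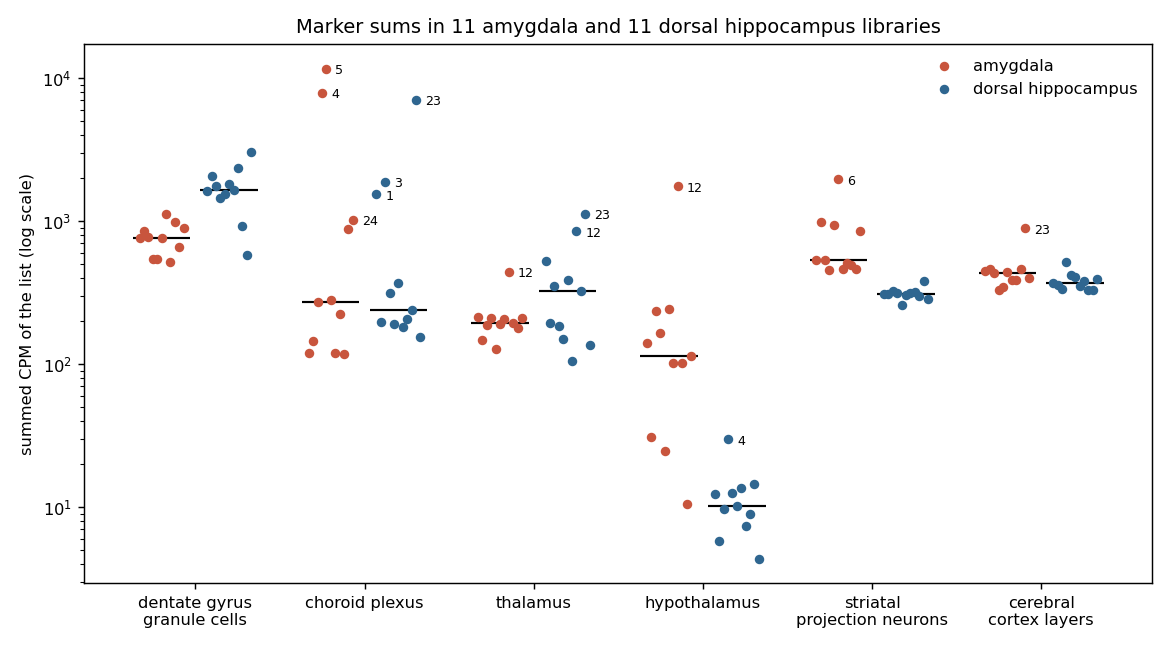
Summed CPM of 6 marker lists (vertical axis, log scale) in each amygdala library (red) and dorsal hippocampus library (blue), with the median of 11 as a black line. Numbers name mice far above the median of their group. The choroid plexus sum spans 118 to 11677 CPM in the amygdala, and 9 of the 11 hippocampal dentate gyrus sums lie above every amygdala sum.

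With the mouse as a block, 5137 of 13942 genes tested (36.8%) differed between the regions at an adjusted p under 0.05 in edgeR's quasi-likelihood test, and 46.2% had an unadjusted p under 0.05. Of the 5137, 2645 were higher in the amygdala (19% of genes tested) and 2492 were higher in the dorsal hippocampus (17.9%). Most differences were small. A difference of at least 2-fold was found for 883 genes (6.33%), 499 higher in the amygdala (3.58%) and 384 higher in the hippocampus (2.75%). At 8-fold or more the counts were 28 and 21. The median log2 fold change of amygdala over hippocampus, over all genes tested, was -0.01. For 420 genes (3.01%) the highest library of one region lay below the lowest library of the other. These favoured the amygdala, with 314 genes (2.25%) against 106 (0.76%), although the calls themselves were nearly balanced. Without mice 4, 5, 12 and 23 the number called was 4931 of 13947 (35.4%). In bulk RNA, a region with fewer cells of a type and one with less RNA per cell cannot be told apart, which holds for every difference below.

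The largest differences toward the dorsal hippocampus were in genes of dentate gyrus granule cells. Lct (chromosome 1, 128284756 to 128328318, minus strand of GRCm38) encodes lactase, a sugar-splitting enzyme used as a granule cell marker. It had 34.6, 103 and 221 CPM (lowest, median, highest) in the hippocampus and 0, 0.784 and 5.14 CPM in the amygdala. Its log2 fold change was -6.57 ± 0.52 (SE), a 95.1-fold difference with an adjusted p of 4.1e-06 from edgeR. It was lower in the amygdala of 11 of 11 mice, and this and separate ranges were conditions for naming it. The highest amygdala value, in mouse 5, was still far under the lowest hippocampal value, in mouse 23.

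Dsp (chromosome 13, 38151294 to 38198577) encodes desmoplakin, which anchors filaments at cell junctions. Its hippocampal libraries had 27.1, 157 and 274 CPM. In the amygdala, 9 libraries had 0.271 to 1.403 CPM, and the 2 with high choroid plexus sums, of mice 4 and 5, had 5.99 and 13.02 CPM. The log2 fold change was -6.40 ± 0.56 and became -7.87 without mice 4, 5, 12 and 23.

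Prox1 (chromosome 1, 190118035 to 190170714), the transcription factor that fixes granule cell identity, had 57.7, 199 and 406 CPM in the hippocampus and 8.83, 18.3 and 36.6 CPM in the amygdala, a log2 fold change of -3.38 ± 0.16 with the smallest adjusted p of the genes named here (1.13e-07, edgeR). C1ql2, a synaptic organizer secreted by mossy fibres, fell from a hippocampal median of 192 CPM to 9.08 CPM in the amygdala (log2 fold change -4.29 ± 0.30). Tdo2, which opens the ring of tryptophan, went from 13.7 to 0.630 CPM (-4.26 ± 0.41). Ranges did not overlap for any of these 5 genes, which was a condition for naming them.

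Of 15 dentate gyrus markers, all tested, 13 were lower in the amygdala, with a list median of -1.99. Calb1 (calbindin) went the other way in 9 of 11 mice, at 117, 220.1 and 375 CPM in the amygdala and 77.9, 137 and 205 CPM in the hippocampus, and missed the threshold without mouse 1 or mouse 10 (adjusted p 0.0509 and 0.0558, edgeR). C1ql3 did not pass the test (log2 fold change 0.13 ± 0.35, adjusted p 0.795, edgeR). The amount of granule cell RNA varied among hippocampal dissections. Their summed dentate markers ran from 583 CPM in mouse 23 and 928 CPM in mouse 13 to 3059 CPM in mouse 24. Dsp and Prox1 were lowest in mouse 23, next lowest in mouse 13 and highest in mouse 24.

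Pyramidal layer markers differed less in size, with list medians of -0.41 for CA1, 0.26 for CA2 and -0.55 for CA3. The shares called were 28.6% for CA1, 42.9% for CA2 and 85.7% for CA3. Of all genes 36.8% were called, and of the dentate gyrus list 93.3%. Of 7 CA1 markers tested, 2 fell in the amygdala, Pou3f1 (-1.88 ± 0.36) and Fibcd1 (-2.38 ± 0.57, or -3.16 without mice 4, 5, 12 and 23), and the other 5 did not pass, among them Wfs1 with 167 CPM in the amygdala and 117 CPM in the hippocampus as medians (log2 fold change 0.76, adjusted p 0.0606, edgeR). Wfs1 passed without mouse 4, 12, 13 or 23, each left out alone, and reached 1.30 without mice 4, 5, 12 and 23 (adjusted p 0.00877). Of 7 CA2 markers tested, 1 was lower and 2 were higher in the amygdala. Of 7 CA3 markers tested, 4 were lower and 2 were higher in the amygdala. Bok, an apoptosis regulator abundant in CA3, had a log2 fold change of -1.14 ± 0.25. Nnat, an imprinted gene of neuronal membranes, had 220.4 to 739 CPM in the amygdala and 75.6 to 215 CPM in the hippocampus.

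Beyond these lists, the genes with the largest non-overlapping differences toward the hippocampus included Slc26a10, Cebpd, Il1r1, Epha7, Emx2os and Fam163b. Il1r1, the signalling receptor for interleukin 1, had 10.9, 24.4 and 38.7 CPM in the hippocampus against 1.51, 3.92 and 8.31 CPM in the amygdala. Cebpd, a transcription factor induced by inflammation and glucocorticoids, had a log2 fold change of -3.001 ± 0.23 (adjusted p 3.78e-06, edgeR). Emx2os is the antisense partner of Emx2. The library kit in the labels does not mark strand, so reads of the pair cannot be told apart (log2 fold change -2.23 ± 0.23 for Emx2os).

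The next genes were higher in the amygdala. Ecel1, an endopeptidase-like membrane protein of peptidergic neurons, had 15.4, 73.7 and 109 CPM in the amygdala against 1.34, 2.19 and 15.0 CPM. This was a log2 fold change of 4.38 ± 0.45, or 20.8-fold (adjusted p 2.18e-05, edgeR). The hippocampal library of mouse 23 was the highest of its region for this gene.

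Trhr, the receptor of thyrotropin-releasing hormone, had 8.45, 18.6 and 75.6 CPM in the amygdala and 0.539, 1.06 and 5.84 CPM in the hippocampus (log2 fold change 3.91 ± 0.41). Oprk1, the kappa opioid receptor for dynorphin, had 4.26, 10.9 and 35.7 CPM against 0, 0.447 and 4.03 CPM (3.92 ± 0.51). Esr1, the estrogen receptor alpha, had 5.04, 13.3 and 27.98 CPM against 0.404, 1.15 and 2.38 CPM (3.37 ± 0.32). For each of these receptors every amygdala library was above every hippocampal library, which was a condition for naming them. Myh7, the slow cardiac myosin heavy chain, and Otof, otoferlin of vesicle release, were 13.8-fold and 14.7-fold higher, with hippocampal medians of 3.71 and 5.23 CPM. Rxrg, a retinoid receptor, was 13.6-fold higher. Esyt3, Ankfn1 and Arhgap6 had log2 fold changes of 4.30, 4.04 and 3.88.

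**Figure D2:**
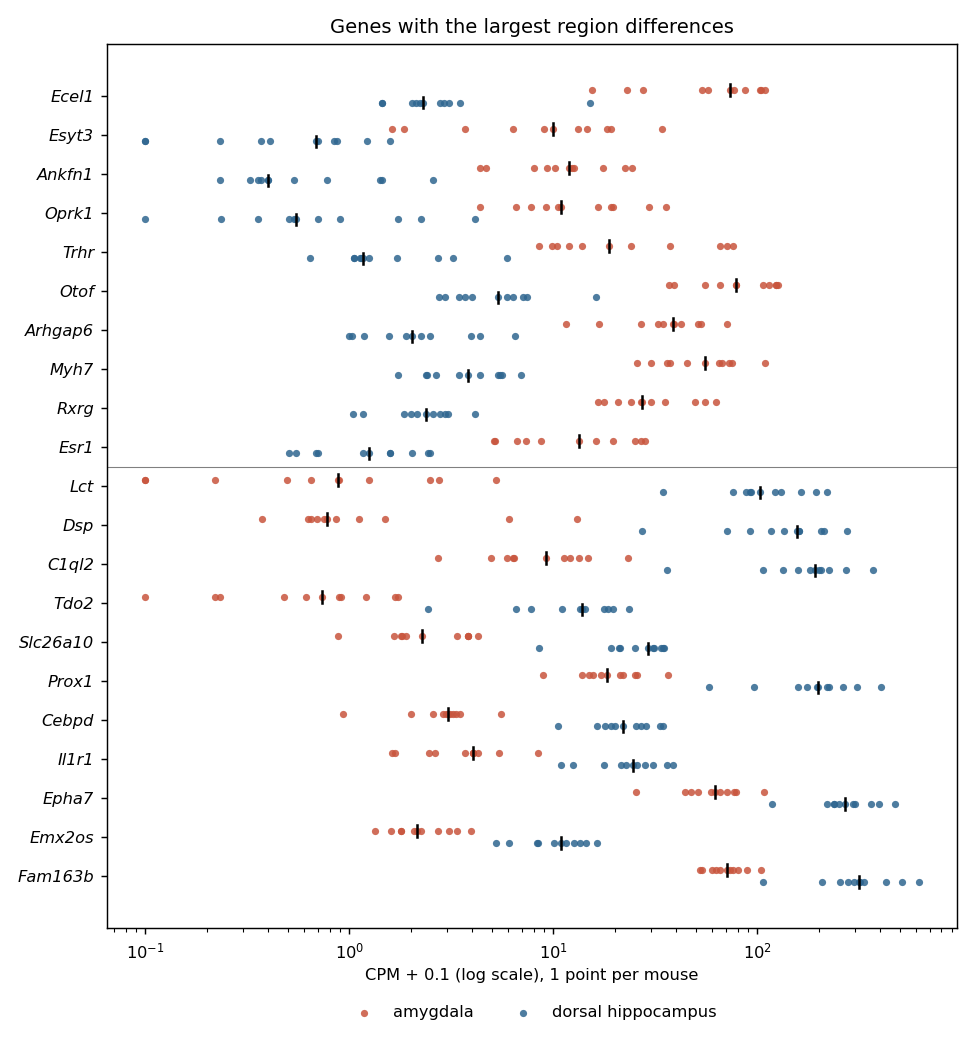
CPM plus 0.1 (horizontal axis, log scale) of 21 genes with the largest differences, 10 higher in the amygdala and 11 higher in the dorsal hippocampus, 1 point per mouse, amygdala in red and dorsal hippocampus in blue, with medians as black ticks. The colours do not overlap in any row, since this was a condition for naming the genes. Lct and Dsp have the widest gap between medians.

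Gene groups that specify neurons in development divided the regions. Of 47 transcription factors that pattern the telencephalon, 41 were tested, and 15 were higher and 11 lower in the amygdala (63.4% called, list median -0.15). The higher ones included factors of the ganglionic eminences, where GABAergic neurons are born. Dlx5 had 3.91, 6.55 and 15.7 CPM in the amygdala against 1.24, 2.25 and 3.57 CPM, with ranges apart. Meis2, also a marker of intercalated cells, had 69.9, 137 and 248 CPM against 7.82, 33.6 and 48.8 CPM (log2 fold change 2.11 ± 0.29). Lhx6, a factor of interneurons from the medial eminence, had 20.7 to 51.6 CPM against 6.82 to 16.8 CPM. Dlx1, Dlx6 and Six3 were higher by 1.101 ± 0.19, 2.00 ± 0.35 and 2.82 ± 0.76 on the log2 scale.

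Nr2f2, a nuclear receptor of caudal and ventral telencephalon listed here among lateral and basal amygdala markers, was the patterning factor with the largest rise. It had 74.7, 157 and 249 CPM in the amygdala and 10.02, 17.7 and 42.9 CPM in the hippocampus, a log2 fold change of 3.03 ± 0.27 (adjusted p 9.59e-06, edgeR). Its lowest amygdala value and its highest hippocampal value both came from mouse 23. The related Nr2f1 was higher by only 0.61 ± 0.09, also with ranges apart. On the hippocampal side stood Zbtb20, which specifies hippocampal pyramidal fate, with 121, 274 and 442 CPM against 37.1, 60.1 and 152 CPM in the amygdala (log2 fold change -2.20 ± 0.23). Emx2, of the medial pallium, and Lef1, a mediator of Wnt signals, fell by 1.54 and 1.42 in the amygdala on the log2 scale. Lef1 in the hippocampus was highest in mice 23, 12 and 1 (23.6, 15.6 and 12.1 CPM), which also had the highest thalamic marker sums (1122, 851 and 524 CPM), and lowest in mice 24 and 10 (2.44 and 3.28 CPM), with thalamic sums of 136 and 105 CPM. The part of thalamic tissue in its difference was not tested. Neurod6 and Neurod2, factors of cortical excitatory neurons, fell by 2.16 and 1.65.

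The marker lists of the amygdala itself were recovered unequally. Of 12 lateral and basal markers, 2 rose, Nr2f2 and Lypd1 (log2 fold change 2.11 ± 0.20, ranges apart), 1 fell, Sema5a (-2.11 ± 0.18), and 9 did not pass (25% called, against 36.8% of all genes). Without mice 4, 5, 12 and 23, 4 rose and 1 fell, so a share below that of all genes did not hold there. Of 20 central and medial markers, 13 were tested, and 8 rose and 1 fell, with a list median of 1.28. The 7 not tested were too low in too many libraries, among them Cyp19a1, Isl1 and Npffr2. The marker that fell was Prkcd, which marks a class of central amygdala neurons and is also abundant in thalamus. Its log2 fold change was -1.64 ± 0.53 (adjusted p 0.0271, edgeR) and -1.44 without mice 4, 5, 12 and 23, where it no longer passed (adjusted p 0.102). It also missed the threshold without mouse 1, 3, 12 or 13 alone (adjusted p 0.056 to 0.0584). The thalamic marker Tcf7l2 moved with it. It had 3.97 to 168 CPM in the hippocampus, highest in mouse 23, and 3.59 to 25.8 CPM in the amygdala. Of 9 thalamic markers tested, Prkcd and Tcf7l2 among them, 5 were higher in the hippocampal dissections, whose thalamic sums were 105 to 1122 CPM against 128 to 444 CPM in the amygdala. Without mice 4, 5, 12 and 23, 3 were higher. The part of thalamic tissue in the difference of Prkcd was not tested.

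All 5 intercalated cell markers were higher in the amygdala. Besides Meis2, they were Foxp2 (1.64 ± 0.44), Drd1 (1.58 ± 0.24), the mu opioid receptor Oprm1 (1.68 ± 0.43) and Tshz1. Striatal projection neurons share several of these genes, and 5 of 10 striatal markers tested rose and none fell. The striatal sum was 459 to 1968 CPM in the amygdala and 259 to 385 CPM in the hippocampus, with 8.64 to 66.6 CPM of Drd1 in the amygdala. The part of striatal tissue in these differences was not tested. Without mouse 6 as well as mice 4, 5, 12 and 23, the log2 fold change of Drd1 and those of the 21 genes plotted with the largest differences stayed on their side of the threshold. That setting kept the amygdala libraries of mice 2 and 24, with striatal sums of 980 and 855 CPM. It was therefore no test of the part of striatal tissue.

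**Figure D3:**
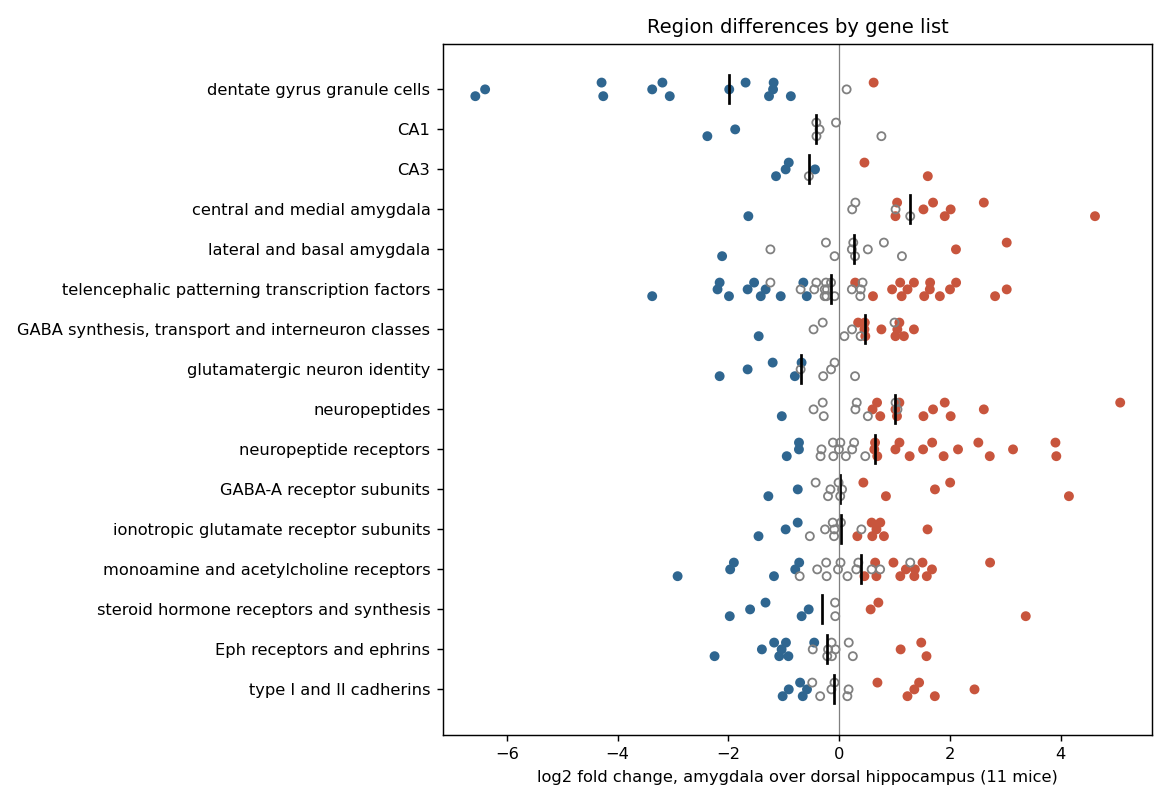
Log2 fold change of amygdala over dorsal hippocampus over 11 mice (horizontal axis) for each tested member of 16 gene lists. Red and blue points passed the threshold (higher and lower in the amygdala), open grey points did not, and black ticks are list medians. The dentate gyrus list lies on the left (median -1.99) and the neuropeptide list on the right (median 1.02), while the receptor families spread to both sides.

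The calls among GABAergic and glutamatergic genes lay mostly in opposite directions. Of 17 GABAergic genes tested, 10 rose in the amygdala and 1 fell (64.7% called, list median 0.46). Gad2, which makes GABA at terminals, had 149, 346 and 571 CPM against 115, 147 and 255 CPM. The vesicular GABA transporter Slc32a1 rose by 1.17 ± 0.21, and Gad1 by 0.34 ± 0.07 in 11 of 11 mice. Pvalb, the calcium buffer of basket cells, was the member that fell. It had 3.66, 7.998 and 91.8 CPM in the amygdala and 13.2, 35.8 and 78.8 CPM in the hippocampus (log2 fold change -1.45 ± 0.32). Of 10 genes of glutamatergic identity, 5 fell and none rose (50% called, against 36.8% of all genes). Without mice 4, 5, 12 and 23, 6 glutamatergic genes fell and 1 rose, and 10 GABAergic genes rose and 2 fell. In WT alone 0 glutamatergic genes passed, and 2 GABAergic genes rose. The vesicular glutamate transporter Slc17a7 did not pass, with medians of 1209 and 1342 CPM (log2 fold change -0.29 ± 0.31, adjusted p 0.498, edgeR).

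Neuropeptide genes leaned to the amygdala. Peptide genes encode precursors that are cut into transmitters and released from dense-core vesicles. Of 27 listed, 21 were tested, and 12 rose in the amygdala and 1 fell (61.9% called, list median 1.02). The other 6 (Gal, Avp, Oxt, Ucn3, Hcrt and Pmch) did not reach the count minimum in enough libraries. Trh, the precursor of thyrotropin-releasing hormone, had the largest difference. Its amygdala libraries had 2.63, 16.6 and 77.8 CPM, and its hippocampal libraries 0, 0.149 and 3.64 CPM. The fitted log2 fold change was 5.08 ± 0.59, and because most hippocampal values are below the 3-count floor its size rests on few reads. Trh was higher in the amygdala of every mouse, and 5 amygdala libraries had under 5 CPM.

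Penk, the precursor of enkephalins, had 30.97, 154 and 863 CPM in the amygdala and 21.3, 35.4 and 52.7 CPM in the hippocampus. Its log2 fold change was 2.01 ± 0.41, and 2 of 11 mice, numbers 10 and 23, went the other way. The highest value was in mouse 6, whose amygdala library also had the highest striatal sum. Cartpt, a peptide of feeding and reward circuits, had 4.96 to 26.7 CPM against 0.128 to 5.21 CPM and was higher in 11 of 11 mice (log2 fold change 2.61 ± 0.50). Tac1, the precursor of substance P, and Crh, the precursor of the stress peptide CRF, rose by 1.91 ± 0.40 and 1.52 ± 0.29 in 10 of 11 mice each. In both cases the exception was mouse 23.

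Sst, the somatostatin of dendrite-targeting interneurons, had 162, 243 and 377 CPM in the amygdala and 70.5, 124 and 186 CPM in the hippocampus, a 2.02-fold difference found in 11 of 11 mice. Vip, of interneurons that inhibit other interneurons, rose by 1.09 ± 0.23. Npy, also of interneurons, did not pass, with medians of 34.9 and 47.9 CPM (log2 fold change -0.46 ± 0.23, adjusted p 0.125, edgeR), but passed without mouse 23 (-0.65, adjusted p 0.00513). Nmb was the peptide gene that fell, by 1.04 on the log2 scale, with medians of 0.834 and 1.90 CPM.

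The promoters of these peptide genes include a textbook target of cyclic AMP signalling, and stretches are shown, chosen after the values were seen, for Sst, Cartpt, the peptide-cutting enzyme Pcsk1 and the somatostatin receptor Sstr2, which rose in the amygdala. Sequences are from RefSeq (GRCm38.p6), 5′ to 3′ on the strand of the gene, with a perfect cyclic AMP response element, TGACGTCA, in capitals. This motif reads the same on both strands. The 250 bases before each gene's start were searched, and 30 bases around each match are printed.
Sst (chr16:23890874-23890903, minus strand, motif 48 bases before the start): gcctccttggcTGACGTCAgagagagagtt
Cartpt (chr13:99900777-99900806, minus strand, 112 bases before the start): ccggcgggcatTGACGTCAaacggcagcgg
Pcsk1 (chr13:75089768-75089797, plus strand, 78 bases before the start): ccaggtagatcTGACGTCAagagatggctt
Sstr2 (chr11:113619258-113619287, plus strand, 58 bases before the start): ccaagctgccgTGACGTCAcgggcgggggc

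Vip and Trh held the first or last part of the motif, TGACG or its reverse complement CGTCA, which is shown in capitals within the 130 bases before their starts.
Vip (chr10:5639088-5639217, plus strand): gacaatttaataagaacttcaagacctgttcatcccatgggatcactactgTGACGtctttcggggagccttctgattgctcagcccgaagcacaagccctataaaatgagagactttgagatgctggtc
Trh (chr6:92244651-92244780, minus strand): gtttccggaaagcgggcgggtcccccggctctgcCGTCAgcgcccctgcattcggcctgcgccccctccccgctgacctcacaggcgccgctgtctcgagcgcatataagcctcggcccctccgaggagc

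In GENCODE M21 the stretches of Sst and Cartpt lie wholly within annotated exons, while the other 4 overlap no exon. A promoter was matched for 23 of the 27 neuropeptide genes, and Crh, Grp, Penk and Pnoc had no entry. Among the 23, the full motif was held by 2, Sst and Cartpt. It was held by 3.06% of the 10728 tested genes with a promoter, by 12 of 376 that were at least 2-fold higher in the amygdala (3.19%) and by 2 of 271 that were at least 2-fold lower (0.738%). The TGACG or CGTCA letters, which include every full match, were held by 30.3%, 22.3% and 19.9% of the same sets. These are counts of letters and show neither binding nor use.

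Pcsk1, prohormone convertase 1, had 32.7, 62.1 and 90.2 CPM in the amygdala and 6.34, 18.9 and 28.04 CPM in the hippocampus, a log2 fold change of 1.78 ± 0.24 with ranges apart.

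Peptide receptors leaned the same way. Of 34 listed, 28 were tested, with 15 higher and 3 lower in the amygdala (64.3% called, list median 0.64). Oxtr, the oxytocin receptor, had 11.8, 18.9 and 47.4 CPM in the amygdala and 1.24, 3.18 and 5.98 CPM in the hippocampus, a 6.59-fold difference (adjusted p 1.58e-06, edgeR). The CCK receptor Cckbr and the neurotensin receptor Ntsr1 were 3.70-fold and 4.43-fold higher, and the regions did not overlap for either. The tachykinin receptors Tacr3 and Tacr1 rose by 3.14 ± 0.61 and 2.51 ± 0.50, each in 10 of 11 mice. Both CRF receptors rose, Crhr1 by 0.63 ± 0.16 and Crhr2 by 1.27 ± 0.33. Among somatostatin receptors, Sstr1 (1.52 ± 0.28) and Sstr2 (1.09 ± 0.21) rose and Sstr4 fell (-0.73 ± 0.16). The other receptors that fell were those of neuropeptide Y, Npy5r (-0.95 ± 0.16) and Npy1r (-0.73 ± 0.25, with medians of 27.2 CPM in the amygdala and 40.6 CPM in the hippocampus). Npy1r missed the threshold without mouse 1, 2, 4, 5, 6, 12 or 24 alone (adjusted p 0.0507 to 0.0774, edgeR).

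**Figure D4:**
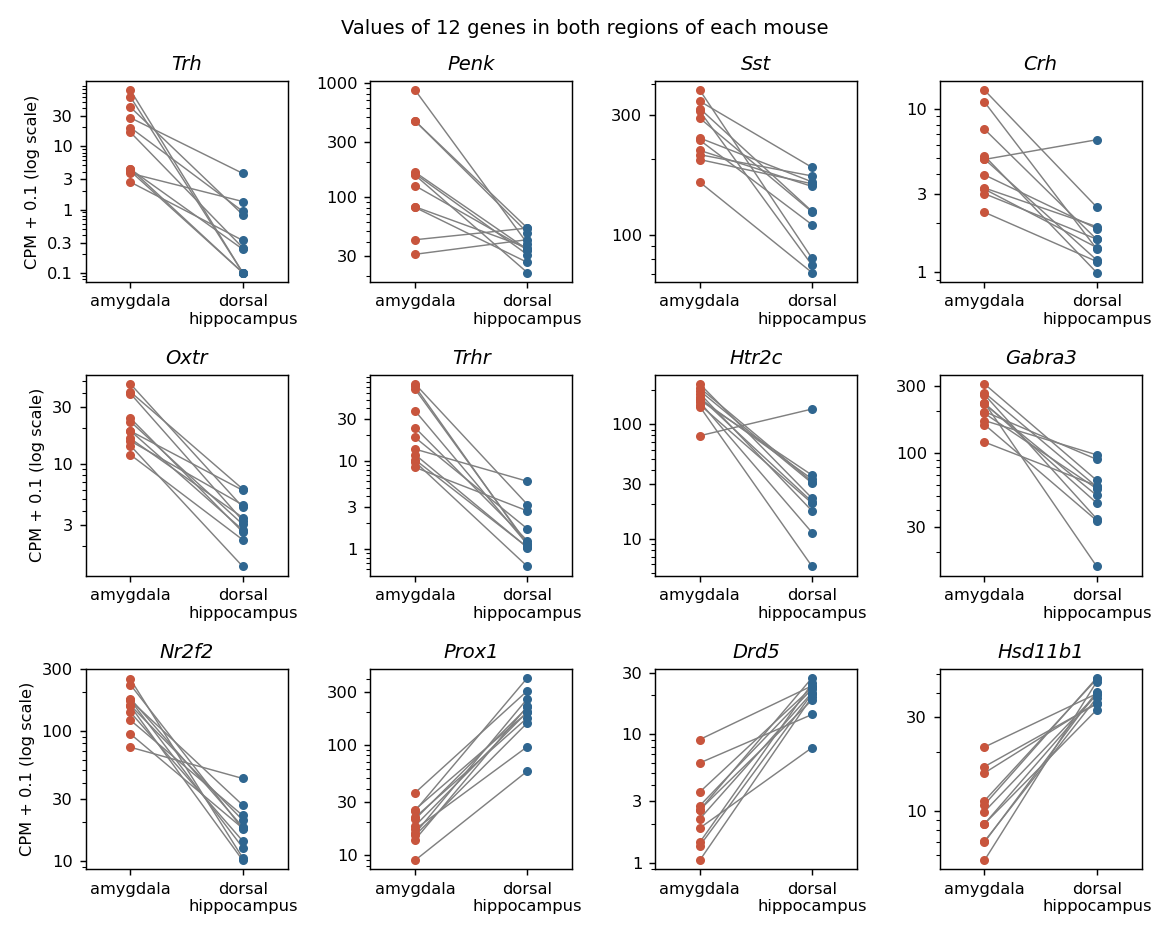
CPM plus 0.1 (vertical axis, log scale) of 12 genes in the amygdala (red) and dorsal hippocampus (blue), with a line joining the 2 libraries of each mouse. Penk falls from amygdala to hippocampus in 9 of 11 mice and Oxtr in all 11, while Prox1, Drd5 and Hsd11b1 rise in all 11. The mouse that goes against the others for Crh and Htr2c is number 23.

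The 2 regions differed in the RNA of some GABA-A receptor subunits, the parts of the chloride channel opened by GABA. Of 13 tested, 5 were higher and 2 lower in the amygdala (53.8% called, against 36.8% of all genes). The list median was 0.02, and in WT alone 1 was higher and 1 lower. Gabra3 had 119.8, 223 and 308 CPM in the amygdala against 15.8, 56.1 and 97.3 CPM (log2 fold change 2.00 ± 0.23, ranges apart). Gabrq, the theta subunit, had 1.89, 19.9 and 38.1 CPM against 0, 0.745 and 4.50 CPM, and Gabrg1 rose by 1.73 ± 0.21. Gabra5, the alpha subunit of tonic inhibition in pyramidal cells, went the other way in every mouse, with 60.7, 83.4 and 160.2 CPM in the amygdala and 108, 227 and 305 CPM in the hippocampus. Gabrd, the delta subunit of granule cells, was lower with an adjusted p of 0.0494 (edgeR), and missed the threshold when any mouse but number 23 was left out (adjusted p 0.0501 to 0.0976).

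Ionotropic glutamate receptor subunits also divided, with 7 of 17 higher and 3 lower (58.8% called, against 36.8% of all genes). Grin3a, an NMDA receptor subunit that lowers calcium flow, had 42.6, 97.5 and 164 CPM in the amygdala and 22.3, 30.1 and 46.1 CPM in the hippocampus. Gria4 was higher by 0.74 ± 0.09 in 11 of 11 mice. The subunits that were lower in the amygdala were Grin2a (-1.46 ± 0.26), Grik4 (-0.97 ± 0.24) and Gria1, whose medians were 723 and 1165 CPM. Of 7 metabotropic glutamate receptors, 2 rose and 2 fell (57.1% called). Grm8 and Grm2, both presynaptic, lay at opposite ends, at 1.30 ± 0.35 and -1.49 ± 0.30.

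Among 30 monoamine and acetylcholine receptors tested, 12 rose and 6 fell (60% called). Htr2c, a serotonin receptor that is edited at the RNA level, had 79.3, 167 and 225 CPM in the amygdala against 5.64, 22.5 and 136 CPM. The hippocampal library of mouse 23, with 7082 CPM of choroid plexus markers, held the 136 CPM, and the next highest had 35.8 CPM. Choroid plexus cells also express Htr2c, and their part in that value was not tested. Hrh1 for histamine and Chrm4 for acetylcholine were higher by 1.68 ± 0.23 and 1.36 ± 0.17, without overlap. Dopamine receptors of the same signalling class differed in direction. Drd1 was higher in the amygdala in 11 of 11 mice, and Drd5 had 0.949, 2.48 and 8.97 CPM there against 7.75, 20.9 and 27.2 CPM in the hippocampus (log2 fold change -2.92 ± 0.28). Adra1d and Htr1a were lower in the amygdala as well, with log2 fold changes of -1.97 ± 0.46 and -0.72 ± 0.19. Htr1a missed the threshold without mice 4, 5, 6, 12 and 23, in males only and in females only (adjusted p 0.078, 0.0858 and 0.0901, edgeR).

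Steroid signalling genes were called in both directions. Of 10 genes tested, 3 rose and 5 fell (80% called, against 36.8% of all genes). Those that rose included Esr1, given above, and Pgr for progesterone (0.57 ± 0.09). Hsd11b1, Nr3c2 and Fkbp5 were among those that fell. Hsd11b1, the enzyme that regenerates corticosterone inside cells, had 32.7, 39.3 and 47.6 CPM in the hippocampus and 5.55, 9.88 and 21.1 CPM in the amygdala, with ranges apart. Nr3c2, the mineralocorticoid receptor, had 93.0, 189 and 281 CPM against 39.5, 52.1 and 127 CPM. The glucocorticoid receptor Nr3c1 did not pass (-0.08 ± 0.08, adjusted p 0.488, edgeR), while its target Fkbp5 was lower in the amygdala of every mouse (-0.55 ± 0.09).

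Cell adhesion and guidance genes split within families. Of 17 cadherins tested, which hold like cells together, 6 rose and 5 fell (64.7% called, against 36.8% of all genes). Cdh4 had 27.3, 70.02 and 132 CPM in the amygdala and 7.72, 11.8 and 22.01 CPM in the hippocampus, and Cdh22 rose by 1.73 ± 0.23. Cdh12 and Cdh24 fell by 1.02 and 0.91 on the log2 scale. Of 19 Eph receptors and ephrins, 3 rose and 8 fell (57.9% called). All 3 that rose were ligands, Efna5 (1.58 ± 0.13), Efnb2 (1.48 ± 0.17) and Efnb1 (1.11 ± 0.13). Of the 8 that fell, 7 were receptors and 1, Efna1, was a ligand. Epha7 had 118, 269 and 471 CPM in the hippocampus against 25.3, 61.9 and 108 CPM, and Epha4 fell by 1.396 on the log2 scale.

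Activity-induced genes gave no common direction. Of 19 rapid ones tested, 2 rose and 5 fell (36.8% called, the same share as over all genes), and without mice 4, 5, 12 and 23, 6 rose and 5 fell. Jun (-0.97 ± 0.20) and Arc (-0.89 ± 0.24) were lower in the amygdala, and Egr2 was higher (1.56 ± 0.34, with medians of 2.48 and 0.743 CPM). Among 15 later genes, 4 rose and 5 fell (60% called), and without those mice 6 rose and 5 fell. Rgs2 and the granin Vgf were higher by 0.91 ± 0.11 and 0.85 ± 0.15, and the growth factors Bdnf and Inhba were lower, at -0.88 ± 0.23 and -1.47 ± 0.22.

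Acss2 itself did not pass the test between regions over both genotypes (log2 fold change -0.12 ± 0.11, adjusted p 0.398, edgeR). That fit includes the KO mice, in which the gene is cut. In WT mice the medians were 44.1 CPM in the amygdala and 53.2 CPM in the hippocampus. Their ranges overlapped, at 42.3 to 64.9 CPM and 47.5 to 69.6 CPM. Of 17 genes of ethanol and acetate metabolism tested, 3 rose and 4 fell, which at 41.2% is near the 36.8% of all genes. Aldh1a1, a cytosolic aldehyde dehydrogenase that also makes retinoic acid, had 6.06, 30.7 and 72.9 CPM in the amygdala and 90.1, 108 and 222 CPM in the hippocampus. Cat, the catalase that oxidizes ethanol in brain, was lower, at -0.48 ± 0.08. Acly, which makes acetyl-CoA from citrate, and Hdac6 were higher by 0.26 ± 0.06 and 0.34 ± 0.07, both in 11 of 11 mice.

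Glial and vascular markers that passed were mostly higher in the hippocampus. Of 12 astrocyte markers 6 fell in the amygdala (50%) and none rose, and of 10 endothelial and pericyte markers 6 fell (60%). Without mice 4, 5, 12 and 23 these counts were 5 and 5, and in WT alone 0 and 0. Of 10 microglial markers 4 fell (40%, near the 36.8% of all genes), 1 without those mice and 0 in WT. Gfap, the filament of astrocytes, had 401, 569 and 742 CPM in the hippocampus and 31.4, 206 and 397 CPM in the amygdala. Aqp4, the water channel of astrocyte endfeet, fell by 0.70 on the log2 scale. Of 12 oligodendrocyte markers, 1 rose and 1 fell, with summed levels of 1208 to 11240 CPM in the amygdala and 2170 to 16641 CPM in the hippocampus.

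The comparison was repeated within genotypes. In the 5 WT mice, 666 of 14062 genes (4.74%) passed, 418 higher (2.97%) and 248 lower (1.76%) in the amygdala. At an unadjusted p under 0.05 there were 3248 (23.1%). This number depended on single mice. It was 22 without mouse 3, 78 without mouse 13, 230 without mouse 12, 238 without mouse 24 and 1879 without mouse 23. In the 6 KO mice, 3337 of 13960 genes (23.9%) passed, 1619 higher (11.6%) and 1718 lower (12.3%), with 37.3% at an unadjusted p under 0.05, and without mouse 1, 2 or 6 the number was 2177, 2188 and 2193. Of the calls, 563 were shared with the same direction and 0 with the opposite direction, which is 84.5% of the WT calls and 16.9% of the KO calls. The groups share no mouse.

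Of the 21 genes plotted with the largest differences, 20 passed in WT alone and 21 in KO alone. Their sign was the same in both genotypes by selection, since the genes were chosen for 1 sign in 11 of 11 mice. Fam163b was the exception in WT (log2 fold change -2.03, adjusted p 0.0626, edgeR). Lct had -6.57 in WT and -6.51 in KO, Prox1 -3.20 and -3.53, Esr1 3.36 and 3.37, and Oxtr 2.86 and 2.61. Trh had 4.40 in WT, where it missed the threshold (adjusted p 0.0514, edgeR), and 5.94 in KO. Of the neuropeptide list, 2 genes passed in WT, both higher, against 7 higher and 1 lower in KO. Of the dentate gyrus list, 8 fell in WT and 13 in KO.

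The difference between genotypes was tested as an interaction. No gene of 14828 (0%) passed in edgeR's quasi-likelihood test. An unadjusted p under 0.05 was found for 160 (1.08%), fewer than the 741 that evenly spread p would give. The absence of calls therefore does not show that the region difference is alike in both genotypes. The DESeq2 Wald test also called 0. The interaction between region and sex called 0 genes as well, with a smallest adjusted p of 0.271 (edgeR), while the DESeq2 Wald test called 42. In edgeR 1495 genes had an unadjusted p under 0.05 (10.1%), more than the 741 that evenly spread p would give. By sex, males alone gave 4531 genes and females alone 165, and females without mouse 23 gave 1617. Sex is also the deposited table and the set of females holds mice 4, 5, 6 and 23, whose libraries stood apart.

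**Figure D5:**
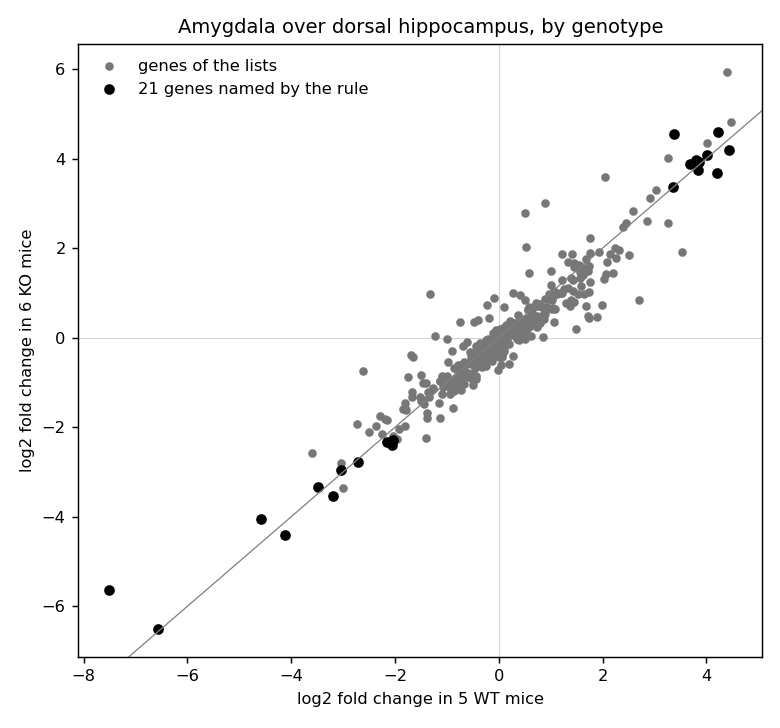
Log2 fold change of amygdala over dorsal hippocampus in 6 KO mice (vertical axis) against that in 5 WT mice (horizontal axis), for 379 genes of the lists (grey) and the 21 genes with the largest differences (black), with the line of equal values. The black points have the same sign in both genotypes by selection, since they were chosen for 1 sign in 11 of 11 mice, and Lct and Dsp lie at lower left.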

How the data were processed

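The authors deposited 2 tables of whole-number read counts per gene symbol, 1 for males and 1 for females. The submitters' processing notes list STAR 2.5.2a, SAMtools 1.1, HTSeq 0.6.1, DESeq2, R 4.0.2 and the builds GRCm38 and mm10, without roles. The annotation and the strand setting of the counting are not given in the sources used here. Both tables hold the same 55367 symbols, no row without a gene name (0) and 0 columns without a sample.

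From the deposited counts, region was tested with edgeR 4.0.16 (limma 3.58.1, R 4.3.3): TMM scaling (factors 0.946 to 1.06), filterByExpr (minimum count 10, minimum total 15), a quasi-likelihood test with the mouse as a block, and Benjamini-Hochberg adjustment at 0.05 over all genes tested. Pairing comes from the animal: both libraries are of 1 mouse. The deviations of the 2 libraries from their group means correlated at -0.24 to 0.14 (median -0.06, 10884 genes). The 20 replicate pairs compared differed by more than sampling noise (chi-square per gene 7.08 to 74.3). DESeq2 1.42.0 was an alternative. The scripts were tested on simulated data.

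Genes were named by rule: in each direction the 12 largest log2 fold changes among genes with an adjusted p under 0.05, the same sign in 11 of 11 mice, separate ranges in the 2 regions and 10 CPM or more on average in the higher one, then members of the gene lists, up to 5 a direction by size. Of the 24 genes named by size, 21 are given, and some results are not reported here. The members, lists and rules were chosen with earlier results of these data known. Positions are from GENCODE M21 of GRCm38, in which 53253 symbols have a single entry, and promoters from RefSeq GRCm38.p6. Reads carry no molecular identifiers.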

Additional observations from a re-analysis of the deposited data

Results flagged for a closer look

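Values far from the rest of their region and genotype were looked for in 120 groups of 5 or 6 libraries, and 16 were found. A rate of 1 in 20 would give 6. The groups share the same libraries, so 16 against 6 does not measure an excess over chance. The dorsal hippocampus of WT mouse 23 was the highest of its group for Ecel1 (15.0 CPM), Ankfn1 (2.48 CPM), Arhgap6 (6.36 CPM) and the choroid plexus sum (7082 CPM), and the amygdala of the same mouse for the cortical layer sum (891 CPM). The amygdala of KO mouse 5 was the highest for Lct (5.14 CPM) and Il1r1 (8.31 CPM), genes that were higher in the hippocampus, and its hippocampus had the lowest striatal sum (259 CPM). The amygdala of WT mouse 12 was the highest for the thalamic (444 CPM) and hypothalamic (1757 CPM) sums.

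The amygdala of WT mouse 24 was the highest for the striatal sum (855 CPM), and that of KO mouse 6 for the striatal sum (1968 CPM). Esyt3 reached 33.9 CPM in the amygdala of KO mouse 1, whose hippocampus had a choroid plexus sum of 1539 CPM. In the hippocampus of KO mouse 4, Oprk1 had 2.15 CPM and the hypothalamic sum was 29.9 CPM, both the highest of the KO group.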

How the results depend on the processing

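Over 11 mice, 5137 genes passed. The number was 5133 with DESeq2 size factors, 5256 with the DESeq2 Wald test, 4970 without the low-count filter, 5540 with no replicate block, 4421 to 5494 with 1 mouse left out, 4531 in males only, 165 in females only, 1617 in females without mouse 23, 4285 without mice 4, 5, 6, 12 and 23, and 883 when a 2-fold difference was also asked. In WT, 666 became 1498 with the DESeq2 Wald test, 1062 without the low-count filter, 1218 with no replicate block, 1070 without mice 4, 5, 12 and 23, and 22 to 1879 with 1 mouse left out. In KO, 3337 became 4044 with no replicate block and 2177 to 3146 with 1 mouse left out. The interaction of region and sex gave 42 genes with the DESeq2 Wald test and 6 without the filter. The causes were not tested, except that fewer mice were fitted where mice were left out. Settings that leave out mice 4, 5, 12 and 23 or mouse 6 as well, and females without mouse 23, were chosen after seeing the data. Of 136 genes named, 4 values over all settings reversed, all of genes that had not passed: C1ql3 became -0.034 without mouse 13 and -0.054 without mouse 23 (range with 1 mouse left out -0.0537 to 0.3527) and -0.43 in females without mouse 23, and Nr3c1 became 0.0057 without mice 4, 5, 6, 12 and 23. With no replicate block, 133 of the 136 kept their side of the threshold. In females only, 107 of the 136 kept their direction but lost their call, and in females without mouse 23 this held for 45. Of the 21 plotted genes, 10 lost their call in females only (Ecel1, Esyt3, Ankfn1, Oprk1, Trhr, Arhgap6, Il1r1, Epha7, Emx2os and Fam163b), and 0 in males only or in females without mouse 23. Genes under the floor of 3 counts, such as Trh in most hippocampal libraries, have folds that rest on few reads.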

Other observations

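Imprinted genes, which are expressed from 1 parental copy and are known for roles in growth and hypothalamic function, were counted as a list added after the values were seen. Of 50 listed, 40 were tested, and 25 were higher and 4 lower in the amygdala (72.5% called, against 36.8% of all genes), with a median log2 fold change of 0.74 against -0.01. In WT alone 2 were higher and 0 lower, and in KO alone 22 were higher and 3 lower. Of all genes, 4.74% passed in WT alone and 23.9% in KO alone. Dlk1, a Notch-like growth regulator, had medians of 48.8 CPM in the amygdala and 1.68 CPM in the hippocampus (log2 fold change 4.62 ± 0.67). Dio3, which inactivates thyroid hormone, and Magel2, of the Prader-Willi region, differed by 3.83 and 3.77 on the log2 scale. Peg10 and Plagl1 differed by 2.26 and 1.99, and the noncoding RNAs Meg3 and Rian by 1.02 and 0.86. The regions did not overlap for Nnat and Rian. The members lower in the amygdala were Rasgrf1 (-0.42), Kcnq1ot1, Commd1 and Sgce. Rasgrf1 missed the threshold without mice 4, 5, 12 and 23 (-0.35, adjusted p 0.0641, edgeR), without mouse 6 as well (adjusted p 0.121), in males only (0.128) and in females only (0.0626). Hypothalamic markers summed to 10.6 to 1757 CPM in the amygdala dissections, and their part in these values was not tested.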
